A study of Mus musculus with 12 samples.

Results

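Glycine receptors are chloride channels built from α subunits, which bind glycine, and a β subunit, and gephyrin is the scaffold protein that holds them and many GABA-A receptors at inhibitory synapses. The 4 genes described here are Glra2 and Glra3, which encode α subunits, Glrb, which encodes the β subunit that binds gephyrin, and Gphn, which encodes gephyrin. They are taken by symbol from 55335 mouse genes counted in nuclei of postnatal cortex. In the forebrain, α2 is the subunit of the immature glycine receptor and can form channels without β, while gephyrin also catalyses the last steps of molybdenum cofactor synthesis in cells of every kind.

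The nuclei came from cortices of 12 mice aged 21 days, 6 wild type (WT) and 6 heterozygous (Het) for a frameshift in Myt1l (S710fsX), a neuronal transcription factor, with 3 males and 3 females of each genotype. All 12 animals carried AAV9 Calling Cards reagents (hyPB and H2b-tdT-SRT), injected through the skull within the first day or so after birth, so WT animals were injected too. Each sample came from a separate animal. Nuclei were profiled by single-nucleus RNA-seq with Scale Biosciences chemistry, in which the barcode added at reverse transcription marks the animal, nuclei of all animals are then mixed and made into shared libraries, and each molecule carries a unique molecular identifier (UMI). Levels are given as CPM, UMIs of a gene per 1000000 UMIs of the nuclei of a class summed within 1 animal, and an error after ± is the SD over animals unless it is named as a standard error (SE).

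Of 78743 deposited barcodes, 34862 passed the quality limits, and no barcode was shared between animals. The smallest barcode total was 1502 UMIs, so the lower limit of 800 UMIs removed none. The median was 5327 UMIs over all barcodes and 3180 over those kept, so the nuclei described here are the ones with fewer UMIs. Some results with all deposited barcodes are given below as an alternative. The study states a larger number of nuclei for this age, and which barcodes it kept is not known here. Each animal gave 1633 to 4644 nuclei and 5359622 to 14825734 UMIs. Marker UMIs named 21961 of these nuclei in 19 classes, each written with -like. The markers defining microglia-like, oligodendrocyte-like and L6 CT-like (layer 6 corticothalamic) nuclei were all highest in their own class among classes of the same broad group, while for L5 ET-like (layer 5 extratelencephalic) nuclei this held for 2 of 6 markers. The microglia-like class, 1 cluster of 145 nuclei, also carried oligodendrocyte markers, with a mean log2 ratio to the median cluster of 6.61 for the microglia panel and 6.11 for the oligodendrocyte panel, and with Mobp and St18 among its 10 leading genes. The tissue is labelled cortex, but 1771 nuclei carried markers of striatal projection neurons and 863 those of dentate granule cells. The striatal-like share was 2.61% to 6.05% of nuclei in WT animals and 4.17% to 6.72% in Het animals.

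The whole-gene UMIs of Myt1l do not check the genotype, since the frameshift leaves the gene in place. In L6 CT-like nuclei Myt1l was at 1092 CPM in the lowest, 1177 at the median and 1315 in the highest WT animal, and at 1358, 1407 and 1597 in Het animals. All 6 Het animals lay above all 6 WT animals there, and the share of all genes that separate in this way is not given here. The log2 fold change of 0.23 (SE 0.06) did not pass the threshold (adjusted p = 0.0666, edgeR's quasi-likelihood test with Benjamini-Hochberg adjustment). Values of similar size, not called, were found in Sncg-like (0.27, SE 0.14), Lamp5-like (0.25, SE 0.12) and striatal-like nuclei (0.22, SE 0.10). Those of Car3-type-like, astrocyte-like, oligodendrocyte precursor-like and endothelial, mural and leptomeningeal-like nuclei were below 0.

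On GRCm38, with Gencode M21 annotation, Glra2 lies at chrX:165129017-165327393 on the minus strand, Glra3 at chr8:55940460-56130070 on the plus strand, Glrb at chr3:80843599-80913660 on the minus strand and Gphn at chr12:78226379-78684772 on the plus strand. No annotated gene overlaps Glra2 or Glrb. Glra3 is overlapped by 2 pseudogenes on the other strand and Gphn by 6 genes, 3 of them on the other strand, and the strand setting of the count is not given in the sources used here. The promoter windows of the genes with the most class-restricted and the most even levels, Glra2 and Gphn, are shown because MYT1L is a DNA-binding factor whose core letters are AAGTT. Shown are the 250 bases before the start that RefSeq gives (GRCm38.p6), at chrX:165327394-165327643 on the minus strand and chr12:78226405-78226654 on the plus strand, with CG pairs in capitals. RefSeq and Gencode place the start of Gphn differently, so this stretch lies inside the gene as Gencode M21 annotates it.
Glra2: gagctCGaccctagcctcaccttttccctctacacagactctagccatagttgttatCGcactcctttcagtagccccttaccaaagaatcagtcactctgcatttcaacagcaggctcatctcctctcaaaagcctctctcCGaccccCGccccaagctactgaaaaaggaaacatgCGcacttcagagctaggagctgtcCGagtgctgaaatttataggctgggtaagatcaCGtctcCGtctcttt
Gphn: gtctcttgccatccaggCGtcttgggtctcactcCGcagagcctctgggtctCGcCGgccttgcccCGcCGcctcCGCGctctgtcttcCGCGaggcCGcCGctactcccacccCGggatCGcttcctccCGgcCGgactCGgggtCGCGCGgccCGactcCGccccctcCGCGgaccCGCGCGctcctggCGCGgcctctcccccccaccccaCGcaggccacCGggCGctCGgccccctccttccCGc
The stretch before Glra2 held 8 CG pairs and that before Gphn 34, against a median of 6 over all promoters. With the 50 bases after the start included, neither promoter, nor those of Glra3 and Glrb, held AAGTT on either strand, and 39.3% of 32851 mouse promoters of the same length held it. The GC content was 50.3% for Glra2, 56% for Glra3, 65.7% for Glrb and 77% for Gphn, against a median of 52.7% over all windows. No match says only that these letters are not in this window.

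The 4 genes stood at different levels in the sum of all nuclei. Per kb of gene body, the scale on which genes can be compared in nuclear RNA, the mean level was 1.81 CPM for Gphn, 1.42 for Glrb, 0.197 for Glra2 and 0.0771 for Glra3. The β subunit and gephyrin thus stood above both α subunits on this scale. Per kb of exon the order was the same, with 221 CPM for Gphn, 21.4 for Glrb, 12.4 for Glra2 and 1.59 for Glra3. The other α subunits were close to the limit of detection, with 196 UMIs of Glra1, the α subunit of adult spinal cord and brainstem receptors, and 59.1 UMIs of Glra4 over all nuclei, against 4520 for Glra2. Glra1 reached 13.7 ± 12.8 CPM in Vip-like nuclei, from 32.3 UMIs, and 3 of 12 animals had none there. The WT mean was 5.16 CPM and the Het mean 22.2 CPM; 4 of 6 Het values exceeded the highest WT value, but Glra1 did not pass the filter on low counts and was not tested.

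Glra2 had the widest range across classes of the 4 genes, with its highest level in interneurons. It reached 233.5 ± 42.4 CPM (n = 12) in Vip-like nuclei, a class of GABAergic interneurons that mostly contact other interneurons. In these nuclei the WT animals ranged from 162.7 to 334.3 CPM with a median of 247.5, and the Het animals from 205.3 to 250.3 with a median of 222.7. Dentate granule-like nuclei followed at 84.7 ± 19.1 CPM and L6 CT-like nuclei at 75.2 ± 21.1. The dentate granule-like class is 1 cluster whose GABAergic marker level was 0.339 of its excitatory marker level, each scaled to the median cluster of its type, and the part of this in its Glra2 level was not tested. Vip-like nuclei were above dentate granule-like nuclei in 12 of 12 animals, by 1.48 on the log2(CPM + 1) scale (SD 0.52). This passed an exact two-sided sign-flip permutation test (p = 0.000488, the smallest that 12 animals allow, adjusted p = 0.00879 over 18 neighbouring pairs).

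Below the Vip-like class the levels of Glra2 formed a graded series in which no other neighbouring pair differed beyond the spread between animals. Sncg-like interneurons were at 64.1 ± 34.9 CPM, striatal-like neurons at 61.4 ± 18.0, L5 NP-like (layer 5 near-projecting) neurons at 52.6 ± 12.6, Pvalb-like interneurons at 45.8 ± 10.1, Lamp5-like interneurons at 34.6 ± 17.7 and L6 IT-like neurons at 29.8 ± 16.98. Sst-like interneurons had 22.6 ± 10.3 CPM. At the low end stood L5 ET-like neurons at 11.4 ± 6.1 CPM, L4/5 IT-like neurons at 6.68 ± 3.98 and L2/3 IT-like neurons at 5.59 ± 4.79. Among excitatory classes the mean was thus higher in L6 CT-like, L5 NP-like and dentate granule-like nuclei than in the intratelencephalic (IT) classes of the upper layers, a comparison of classes that are not neighbours in the order and were not tested. Between the highest and the lowest neuronal class, Vip-like and L2/3 IT-like, the ratio of means was 41.7, against 16.3 for Glra3 over the neuronal classes. These ratios rest on low levels in the lower class, and they were 85.1 for Glra2 in WT animals only and 33.4 for Glra3 without WT female-1. In L2/3 IT-like nuclei Glra2 had a WT mean of 2.84 CPM and a Het mean of 8.35 CPM, where 4 of 6 Het values exceeded the highest WT value, and the gene did not pass the filter on low counts there, so this was not tested. Oligodendrocyte-like nuclei, which make myelin, had 7.33 UMIs of Glra2 in all, or 2.59 ± 4.24 CPM.

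Shares of nuclei with a Glra2 UMI gave the same ends of the order once every nucleus was thinned to 1500 UMIs. The share was 27.4% of 657 Vip-like nuclei (95% exact binomial interval 24.0% to 31.0%), 10.9% of dentate granule-like nuclei (8.89% to 13.2%) and 9.60% of L6 CT-like nuclei (8.74% to 10.5%). It was 0.544% of L2/3 IT-like nuclei (0.281% to 0.948%) and 0.0703% of oligodendrocyte-like nuclei (0.00178% to 0.391%), a cell type that should lack the gene. Without thinning the shares were 45.4% in Vip-like nuclei, with a median of 3132 UMIs, and 0.562% in oligodendrocyte-like nuclei, with a median of 2485. These intervals cover counting error only.

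Glra3, the other α subunit counted in numbers that allow an order, had a different one. Its highest named class was L2/3 IT-like, at 29.5 ± 7.9 CPM, the class in which Glra2 was lowest among neurons. The 6 WT animals ranged from 13.01 to 36.4 CPM with a median of 31.6 and the 6 Het animals from 26.2 to 38.2 with a median of 31.4. Pvalb-like interneurons followed at 16.2 ± 7.0 CPM, Sncg-like at 14.98 ± 18.9 and Sst-like at 11.4 ± 7.6. None of the 18 neighbouring pairs of Glra3 differed by the exact sign-flip permutation test. Neighbours are the closest classes in an order set by the same values, so classes further apart were not compared. Vip-like nuclei, the highest for Glra2, had 7.33 UMIs of Glra3 in all, or 3.26 ± 3.47 CPM, and dentate granule-like nuclei 4.50 UMIs, or 1.81 ± 2.63 CPM. Microglia-like nuclei of 7 animals had no Glra3 UMI, which at 3 counts allows up to 7.44 CPM. After thinning, 4.13% of L2/3 IT-like nuclei (95% exact binomial interval 3.33% to 5.04%) and 0.152% of Vip-like nuclei (0.00385% to 0.845%) held a Glra3 UMI, and 0.141% of oligodendrocyte-like nuclei (0.0170% to 0.507%) did.

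**Figure D1:**
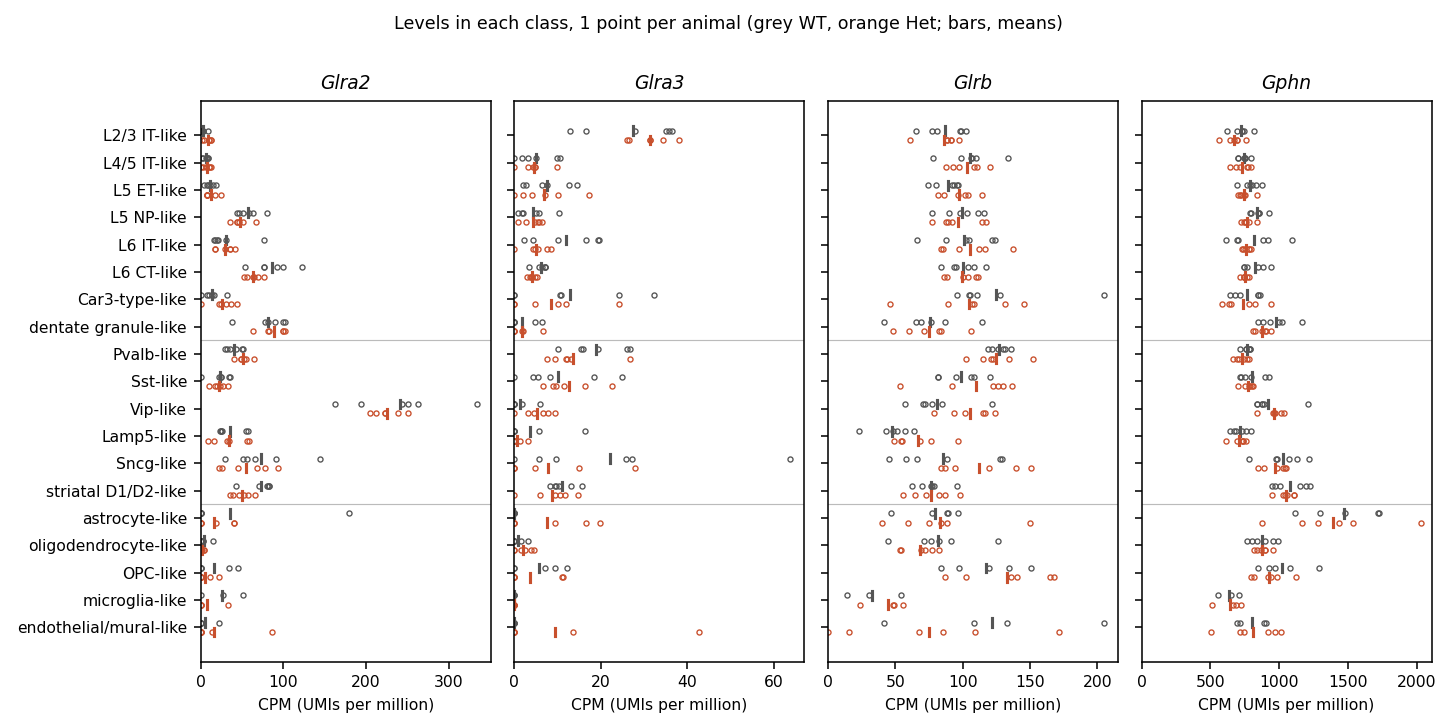
CPM of Glra2, Glra3, Glrb and Gphn on linear axes that start at 0 (each gene has its own), in the 19 named classes, with 1 open point per animal (grey WT, orange Het) and bars at the mean of each genotype. Glra2 stands out in Vip-like nuclei at 233.5 CPM and Glra3 is highest in L2/3 IT-like nuclei at 29.5 CPM, while Glrb and Gphn have UMIs in every class.

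Glrb, the subunit that links the receptor to gephyrin, had UMIs in every class and spread less between neuronal classes than Glra2 or Glra3. It was highest in Pvalb-like interneurons, at 125.9 ± 12.4 CPM, and in oligodendrocyte precursor-like (OPC-like) nuclei, at 125.9 ± 30.0 CPM in the 11 animals with enough of them. In Pvalb-like nuclei WT animals ranged from 119 to 136 CPM with a median of 127.9 and Het animals from 102.4 to 152 with a median of 121.7, so the Het range enclosed the WT range. L6 CT-like nuclei were at 100.1 ± 10.8 CPM, L2/3 IT-like at 86.7 ± 13.3 and Vip-like, where Glra2 peaked, at 93.0 ± 22.8. The lowest neuronal class was Lamp5-like at 57.2 ± 18.3 CPM, and microglia-like nuclei had 39.5 ± 16.5 (n = 7). The ratio of the highest to the lowest neuronal class was 2.20. No neighbouring pair differed, but this does not compare classes further apart in the order. Pvalb-like levels, 102.4 to 152 CPM, did not overlap with Lamp5-like levels, 22.8 to 96.8 CPM, and this pair was not tested. It was picked as the highest and lowest neuronal class, and the share of all genes that separate it is not given here. Thinned nuclei with a Glrb UMI made up 16.9% of the Pvalb-like (95% exact binomial interval 15.2% to 18.7%) and 8.76% of the Lamp5-like class (6.90% to 10.9%), and 7.59% of microglia-like nuclei (3.85% to 13.2%) held one as well.

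Gphn was the most evenly spread of the 4 genes. Its mean was highest in astrocyte-like nuclei, at 1423 ± 325 CPM (n = 11), followed by striatal-like neurons at 1064 ± 92, Sncg-like interneurons at 999 ± 120, OPC-like nuclei at 970 ± 147 and Vip-like interneurons at 940 ± 109. Astrocyte-like and OPC-like nuclei thus stood among the highest classes. L6 CT-like nuclei were at 785 ± 69 CPM, Pvalb-like at 747 ± 42 and L2/3 IT-like, the lowest neuronal class, at 697 ± 68. The ratio of the highest to the lowest neuronal class was 1.53. No neighbouring pair differed, but this does not compare classes further apart in the order. Striatal-like levels, 945 to 1221 CPM, did not overlap with L2/3 IT-like levels, 565 to 820 CPM, and this pair was not tested. It was picked as the highest and lowest neuronal class, and the share of all genes that separate it is not given here. After thinning, 87.5% of astrocyte-like nuclei (95% exact binomial interval 82.4% to 91.5%), 76.7% of striatal-like (74.6% to 78.6%), 63.0% of L2/3 IT-like (60.9% to 65.0%) and 57.2% of microglia-like nuclei (48.8% to 65.4%) held a Gphn UMI. No class lacked the gene, so no share gives its background.

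GABAergic nuclei as a whole, named or not, were compared with excitatory nuclei of the same animals as a description. Glra2 was at 62.0 ± 6.5 CPM against 33.7 ± 2.9, a ratio of 1.84, and was higher in GABAergic nuclei in 12 of 12 animals. The Glra2 ranges did not overlap, at 52.3 to 73.0 CPM in GABAergic and 29.6 to 39.3 CPM in excitatory nuclei. The share of all genes that separate these sums, or are higher on the same side in every animal, is not given here. The lack of overlap therefore cannot be weighed. Vip-like nuclei gave 489 of the 1861 GABAergic UMIs of Glra2. Sncg-like, striatal-like and Pvalb-like means also lay above the excitatory one, Lamp5-like nuclei were close to it at 34.6 CPM, and Sst-like nuclei lay below it at 22.6 CPM. Dentate granule-like (84.7 CPM) and L6 CT-like nuclei (75.2 CPM) stood above every named GABAergic class but Vip-like. Glra3 was at 21.5 ± 7.4 CPM against 13.4 ± 3.6 and was higher in 11 of 12 animals, but 331.7 of its 651.6 GABAergic UMIs came from 1 unnamed cluster of 678 nuclei. Of the named GABAergic classes, Pvalb-like and Sncg-like had a Glra3 mean above the excitatory 13.4 CPM, and Sst-like, striatal-like (9.93 CPM), Vip-like and Lamp5-like (2.21 CPM) one below it. Gphn was at 914 ± 69 CPM against 780 ± 38, a ratio of 1.17, and was higher in 12 of 12 animals. Among the named GABAergic classes, striatal-like, Sncg-like and Vip-like nuclei had a Gphn mean well above the excitatory one, Sst-like nuclei were close to it at 787 CPM, and Pvalb-like (747 CPM) and Lamp5-like nuclei (712 CPM) lay below it. Glrb was at 99.1 ± 7.6 CPM against 96.4 ± 4.4, higher in 8 of 12 animals, so its levels on both sides lay within the spread between animals.

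Some of the highest levels lay in clusters that met the criteria of no class, and these clusters were picked after their values had been seen. Glrb was highest in a cluster of 488 nuclei that carried both the oligodendrocyte and the oligodendrocyte precursor markers, led by Bcas1, 9630013A20Rik, Tcf7l2, Tns3, Cnksr3, St18, Itpr2, Enpp6 and Sox6. Its WT animals were at 275 CPM in the lowest, 411 at the median and 519 in the highest, and its Het animals at 302, 374 and 439. Every animal lay above its own OPC-like level, in 11 of 11 animals with both, and above its own oligodendrocyte-like level, in 12 of 12. The mean of 388 ± 77 CPM was 3.08 times that of OPC-like and 5.17 times that of oligodendrocyte-like nuclei. Whether these nuclei are single nuclei or pairs was not tested.

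Glra3 was highest in that unnamed GABAergic cluster of 678 nuclei, with Rmst, Unc13c and Tshz2 as its leading genes. The WT animals ranged from 93.4 to 182 CPM with a median of 142 and the 5 Het animals with enough nuclei from 67.2 to 142 with a median of 126. The genotypes overlapped. The mean of 131.7 ± 33.0 CPM was 4.47 times that of L2/3 IT-like nuclei and 8.13 times that of Pvalb-like nuclei, and lay above both in 11 of 11 animals. The same cluster held Glra2 at 92.8 ± 11.6 CPM, which was 2.03 times the Pvalb-like level and higher in 11 of 11 animals, but was below the Vip-like level in all 11. Its excitatory marker level was 0.431 of its GABAergic marker level, each scaled to the median cluster of its type, and the part of this in its Glra2 and Glra3 levels was not tested.

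**Figure D2:**
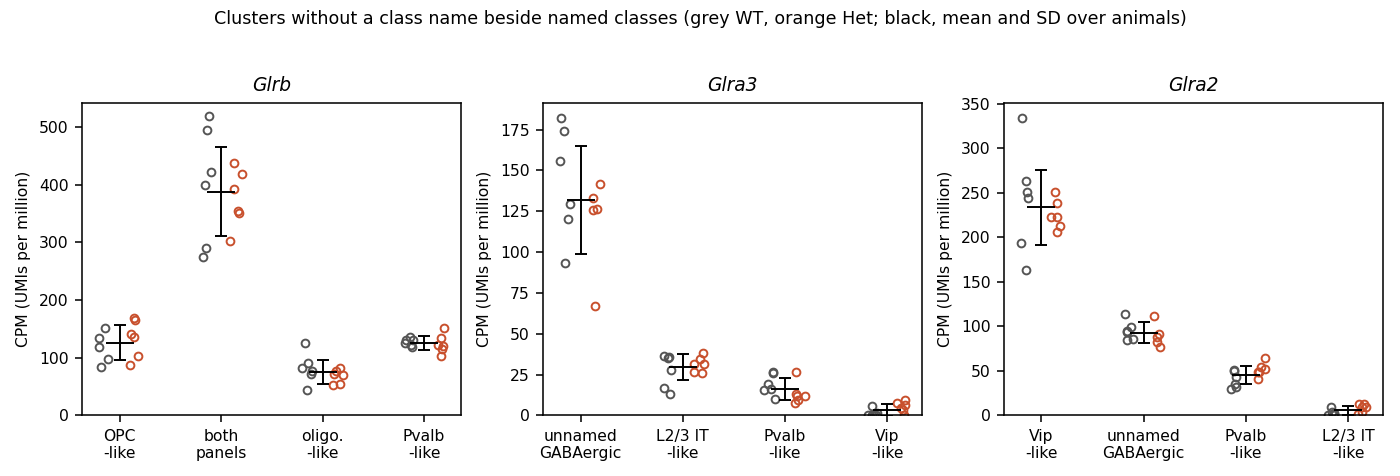
CPM of Glrb, Glra3 and Glra2 (linear axes from 0) in the clusters without a class name beside named classes, 1 open point per animal (grey WT, orange Het), with the mean and SD over animals in black; "both panels" is the cluster with oligodendrocyte and OPC markers. Glrb averages 388 CPM there against 125.9 in OPC-like nuclei, and Glra3 131.7 CPM in the unnamed GABAergic cluster against 29.5 in L2/3 IT-like nuclei.

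Across the means of the 19 classes, on the log2(CPM + 1) scale, the levels of Glra3 and Glrb were the most alike of any pair of the 4 genes, with a Pearson r of 0.68, and r was 0.01 for Glra2 and Glra3, 0.05 for Glra2 and Glrb, 0.28 for Glra2 and Gphn, 0.02 for Glra3 and Gphn and 0.15 for Glrb and Gphn. These are descriptions over 19 points that share animals, and the shallow classes add counting noise. The shallow microglia-like class was the lowest for both Glra3, with no UMI, and Glrb, with 39.5 CPM from 15 UMIs. It can raise the r of this pair, and r without it was not taken. Among all genes with at least 5 CPM in some class, those most like Glra2 were Dpysl5 (r = 0.80), Usp29 (0.78) and Uchl3 (0.75). For Glra3 they were B230216N24Rik (0.76), Gm13844 (0.76) and Col6a4 (0.76), for Glrb Ndufa8 (0.88), Insyn2a (0.85) and Apip (0.83), and for Gphn Nat8f4 (0.87), Sbspon (0.85) and Aldoc (0.84). None was among the class markers. Several of them were themselves low, and Nat8f4 reached 7.36 CPM at most.

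Het and WT animals were compared class by class to ask where the heterozygous frameshift alters these genes. Each class was fitted over all its genes, and a gene was called at an adjusted p under 0.05 with an absolute log2 fold change over 0.2. The 4 genes passed the filter on low counts in 41 of 76 combinations of gene and class, 6 for Glra2, 1 for Glra3, 15 for Glrb and 19 for Gphn. None of the 41 was called by edgeR's quasi-likelihood test, nor any of the 4 genes in the sums over all, all excitatory or all GABAergic nuclei. Over the 22 fits together 0.126% of tests were called. An unadjusted p under 0.05 was reached in 4 of the 41 class fits, 9.76%, against 6.89% of all tests in these fits, and DESeq2 called 1 of the 41. The paper, which ran DESeq2 on its own clusters and nuclei, names Glra2 among the genes higher in WT at this age. Its main text does not name the cluster.

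The smallest p belonged to Glra2 in L6 CT-like nuclei, which project to the thalamus. The WT animals were at 53.6 CPM in the lowest, 84.3 at the median and 123.1 in the highest, and the Het animals at 52.0, 63.7 and 76.3. The groups overlapped, since 1 of 6 Het animals lay below the lowest WT animal, although 5 of the 6 WT animals were above the highest Het animal, 2 of them only just. The means were 86.9 ± 23.8 and 63.4 ± 8.9 CPM (n = 6 each), from 1082 UMIs in all. The log2 fold change was -0.48 (SE 0.13, 95% interval -0.75 to -0.22), and the adjusted p of 0.0726 by edgeR's quasi-likelihood test missed the threshold. In this class 73 of 8390 genes, 0.87%, were called, and 0.358% were called lower in Het. DESeq2, with 1.17% of genes called in this class, did call Glra2 there (adjusted p = 0.0472). So did edgeR without the filter on low counts (adjusted p = 0.018, with 0.392% of genes called) and edgeR without the WT animal with the lowest value, female-1 (log2 fold change -0.57, adjusted p = 0.00673). Leaving out the lowest WT animal raises the WT mean by construction, and in that run 114 genes of this class were called, against 73. Leaving out any other single animal gave no call of Glra2 here. With all deposited barcodes the log2 fold change was -0.30 and was not called.

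Striatal-like nuclei gave the next smallest p for Glra2. The WT animals were at 43.0 CPM in the lowest, 80.9 at the median and 82.4 in the highest, and the Het animals at 35.4, 49.2 and 66.1. Of the WT animals 5 were above every Het animal, and female-3 lay among the Het animals. The log2 fold change was -0.59 (SE 0.19), and the adjusted p of 0.568 by edgeR did not pass. Where these nuclei lay in the dissected tissue was not tested here. The paper stained cortex of this age for DARPP32, its marker of striatal inhibitory neurons, and for the neuronal marker NeuN. It reports more double-positive neurons in the deep layer in Het animals. The striatal-like share of nuclei was 3.70% at the median in WT and 6.31% in Het animals, and the part of this in the difference was not tested. With all deposited barcodes the log2 fold change was -0.13 (SE 0.14). The class joins clusters with different levels of Glra2, from 23.0 to 139.8 CPM on average. In the largest of them, 1120 of the 1771 nuclei, the order of the medians was the other way, with a WT median of 16.97 CPM and a Het median of 25.6 CPM, and clusters were not tested one by one.

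In the other classes tested, Glra2 differed by less than its error allows to be called. L5 NP-like nuclei ranged from 44.2 to 80.4 CPM in WT and from 35.5 to 66.7 in Het (log2 fold change -0.31, SE 0.19, adjusted p = 0.846 by edgeR). Pvalb-like nuclei went the other way, from 29.4 to 51.3 CPM in WT and from 40.5 to 64.0 in Het, with 3 of 6 Het animals above the highest WT animal (log2 fold change 0.27, SE 0.17, adjusted p = 0.96 by edgeR). It was 0.12 with all deposited barcodes. The class joins 3 clusters that differ in this: in the largest, of 1334 nuclei, WT levels of Glra2 ran from 17.1 to 46.8 CPM and Het levels from 48.9 to 55.05 without overlap, in that of 372 nuclei the medians were 63.2 (WT) and 62.3 CPM (Het), and in that of 137 nuclei, with 12 UMIs over 8 animals, they were 48.8 and 0 CPM. These clusters were picked after their values were seen and were not tested. The share of all genes that separate the genotypes in such a cluster is not given here, so the lack of overlap cannot be weighed. In Vip-like nuclei, where the gene was highest, the log2 fold change was -0.10 (SE 0.16, 95% interval -0.41 to 0.21), and in dentate granule-like nuclei 0.08 (SE 0.21). A test of whether the Glra2 difference itself varies between classes was not run. Glra2 is X-linked, so a sex by genotype interaction was fitted as well.

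**Figure D3:**
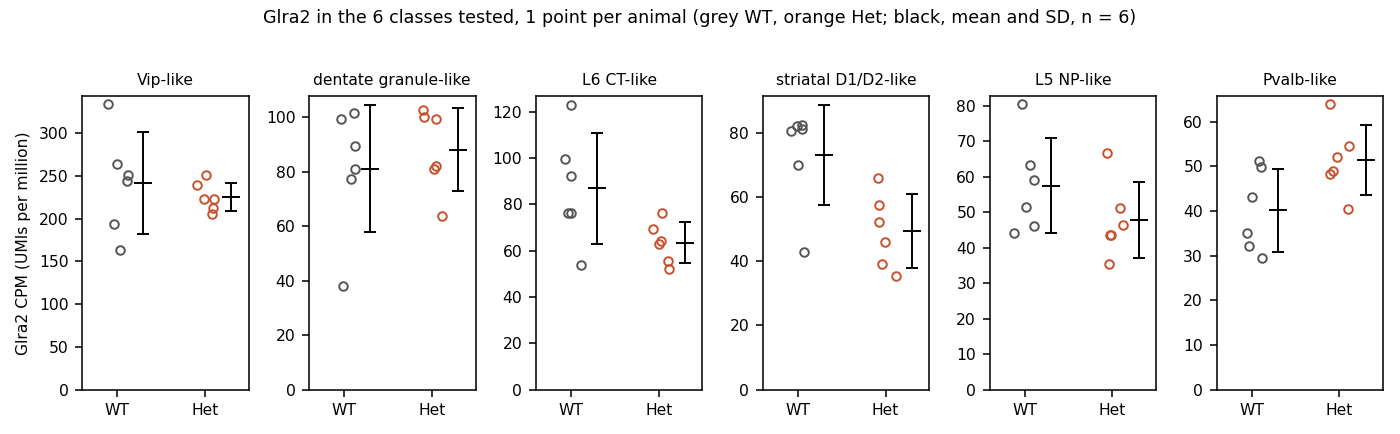
CPM of Glra2 in the 6 classes in which it was tested, 1 open point per animal (grey WT, orange Het, n = 6 each), with the mean and SD in black and each panel on its own linear axis from 0. In L6 CT-like nuclei the means were 86.9 and 63.4 CPM with overlapping groups, and in Pvalb-like nuclei 40.2 and 51.4 CPM.

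The interaction of sex and genotype was called for none of the 4 genes in 54 fits by edgeR's quasi-likelihood test, nor by DESeq2. The smallest adjusted p was 0.908 and the smallest unadjusted p 0.066, and none of the 54 had an unadjusted p under 0.05, against 4.79% of all tests in the interaction fits. Over all genes 0.00321% of tests were called. The 3 animals of each sex and genotype limit what this test can detect.

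Glra3 passed the filter in 1 class, L2/3 IT-like, with a log2 fold change of -0.03 (SE 0.21, 95% interval -0.45 to 0.38). The interval leaves room for a change of this size in either direction. In the sum of all excitatory nuclei WT animals were at 8.52 CPM in the lowest, 15.5 at the median and 20.5 in the highest, and Het animals at 9.77, 11.6 and 15.2. The Het range lay inside the WT range, and the log2 fold change of -0.36 (SE 0.17) was not called (adjusted p = 0.654 by edgeR). With all deposited barcodes it was -0.12, and it ran from -0.49 to -0.25 without single animals. A sum over classes moves with their shares as well as with levels within them.

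Glrb was tested in 15 classes, with 8 log2 fold changes below 0 and 7 above, from -0.15 to 0.41. The largest were in interneurons. Vip-like nuclei ranged from 57.1 to 122.1 CPM in WT and from 78.7 to 124.4 in Het (log2 fold change 0.41, SE 0.21, 95% interval -0.02 to 0.84, adjusted p = 0.903 by edgeR). Lamp5-like nuclei ranged from 22.8 to 64.0 CPM in WT and from 49.4 to 96.8 in Het, with 3 of 6 Het animals above the highest WT animal (log2 fold change 0.40, SE 0.24, adjusted p = 0.782 by edgeR). Sncg-like nuclei had a log2 fold change of 0.39 (SE 0.27). In each of these classes the groups overlapped, and Glrb rests there on 151 to 198 UMIs in all. With all deposited barcodes the log2 fold changes were 0.27 in Vip-like, 0.05 in Lamp5-like and 0.15 in Sncg-like nuclei, and without single animals that of Lamp5-like nuclei ran from 0.25 to 0.56. In L6 CT-like nuclei, with 1455 UMIs, the log2 fold change was -0.03 (SE 0.10, 95% interval -0.22 to 0.16).

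Gphn had small negative log2 fold changes in 17 of 19 classes, from -0.18 to 0.04 with a median of -0.09, where the median of all genes lay between -0.02 and 0.01 in each fit. These classes come from the same 12 animals and are not independent, and 0 of 19 were called by edgeR, with an unadjusted p under 0.05 in 2. In L6 CT-like nuclei WT animals were at 744 CPM in the lowest, 807 at the median and 943 in the highest, and Het animals at 714, 745 and 784. The groups overlapped, with 2 of 6 Het animals below the lowest WT animal (log2 fold change -0.16, SE 0.07, adjusted p = 0.312 by edgeR). In L5 NP-like nuclei WT animals were at 784, 846 and 927 CPM, and Het animals at 723, 756 and 837. Here 5 of 6 Het animals lay below the lowest WT animal (log2 fold change -0.17, SE 0.08, adjusted p = 0.783 by edgeR). In the sum of all excitatory nuclei the log2 fold change was -0.11 (SE 0.04, 95% interval -0.20 to -0.02, adjusted p = 0.52 by edgeR), and 3 of 6 Het animals lay below the lowest WT animal.

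**Figure D4:**
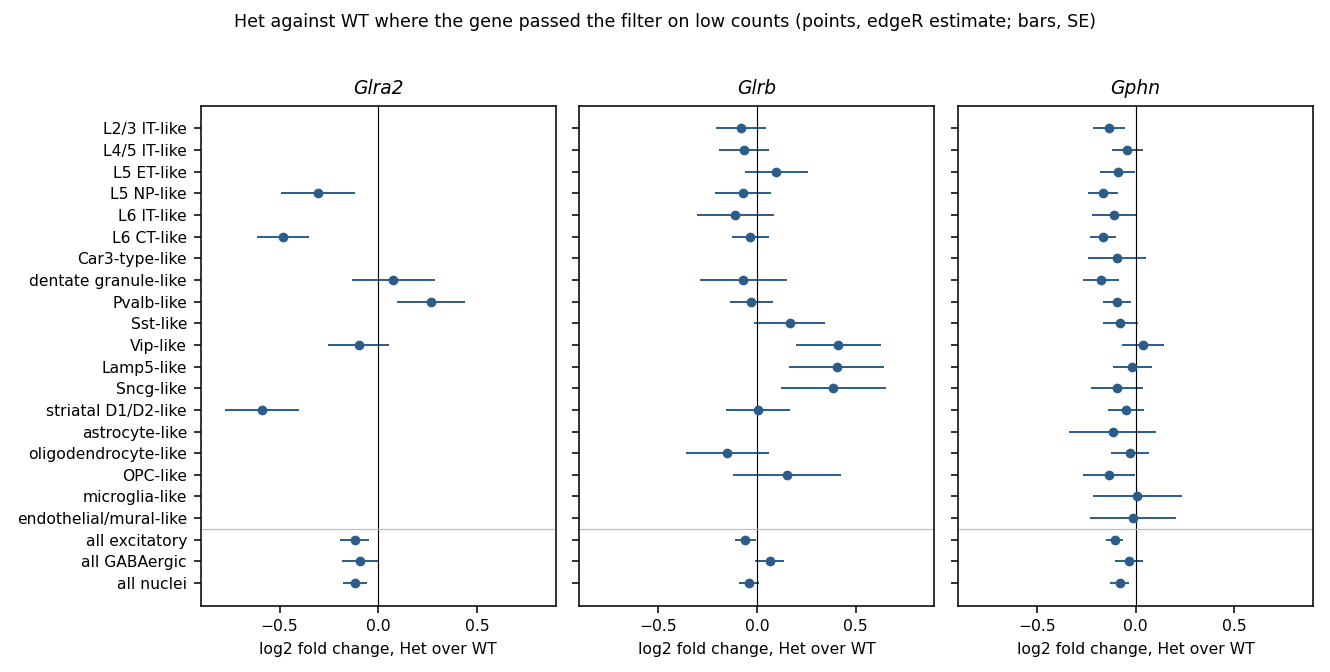
Log2 fold changes of Glra2, Glrb and Gphn, Het over WT (x axis, edgeR estimate as a point, SE as a bar), in each named class and, under the grey line, in the sums of all excitatory, all GABAergic and all nuclei; a class without a point is one in which the gene did not pass the filter on low counts. Gphn lies between -0.18 and 0.04 in the classes, while Glra2 runs from -0.59 to 0.27.

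The other genes of glycine and gephyrin biology were read from the same fits. Of 34 genes in 6 lists, 19 entered at least 1 class fit, with 142 tests, of which 0 were called higher and 1 lower in Het by edgeR's quasi-likelihood test. Over all genes 0.126% of the tests of the 22 fits were called. In L6 CT-like nuclei, the class of the 1 call, 0.87% of all genes were called, and 0.358% were called lower in Het. The median log2 fold change over the 142 tests was -0.01. The call was Gabrb2 in L6 CT-like nuclei, a subunit of the GABA-A receptors that gephyrin anchors, and of the 4 listed subunits 3 had a negative log2 fold change there.

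Gabrb2, which encodes the β2 subunit, was at 498 CPM in the lowest, 613 at the median and 700.4 in the highest WT animal of the L6 CT-like class and at 421, 492 and 520 in the Het animals. It fell by 0.38 on the log2 scale (SE 0.07, adjusted p = 0.00628 by edgeR), with 4 of 6 Het animals below the lowest WT animal. Gabrb2 kept its call in every alternative run, with adjusted p-values up to 0.0304. In the same class Gabra3, the α3 subunit, had a log2 fold change of 0.03 (SE 0.10) and Gabra2, the α2 subunit of GABA-A receptors, one of -0.09 (SE 0.10), neither called. In L2/3 IT-like nuclei Gabrb2 had a log2 fold change of -0.38 (SE 0.08, adjusted p = 0.0539 by edgeR) and missed the threshold.

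Of the 13 partners of gephyrin and other genes of the inhibitory postsynapse, 9 entered class fits, with 69 tests and 0 calls. Nlgn2, the adhesion protein of inhibitory synapses, had a log2 fold change of 0.07 (SE 0.18) in L6 CT-like nuclei. The median of the 9 genes in this class was 0.10.

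Glycine supply was thinly covered. Of the 4 genes of glycine transport and vesicle loading, 3 entered class fits, with 4 tests and 0 calls. Slc6a5, the neuronal glycine transporter, had 74.2 UMIs over all nuclei, 0.630 ± 0.243 CPM, which leaves it close to the limit of detection. Slc7a10, an amino acid exchanger that carries glycine and serine, was at 210.2 ± 79.6 CPM in astrocyte-like nuclei against 0.667 ± 0.438 in excitatory nuclei, and Slc6a9, the transporter that clears glycine into glia, at 29.0 ± 23.3 CPM in astrocyte-like nuclei. Slc32a1, which loads GABA and glycine into vesicles, was at 26.9 ± 6.4 CPM in GABAergic and 1.27 ± 1.10 in excitatory nuclei. Glycine synthesis and cleavage gave 9 tests of 2 of its 6 genes and molybdenum cofactor synthesis 1 test of 1 of its 5 genes, with 0 calls. Glra1 and Glra4 entered no class fit.

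**Figure D5:**
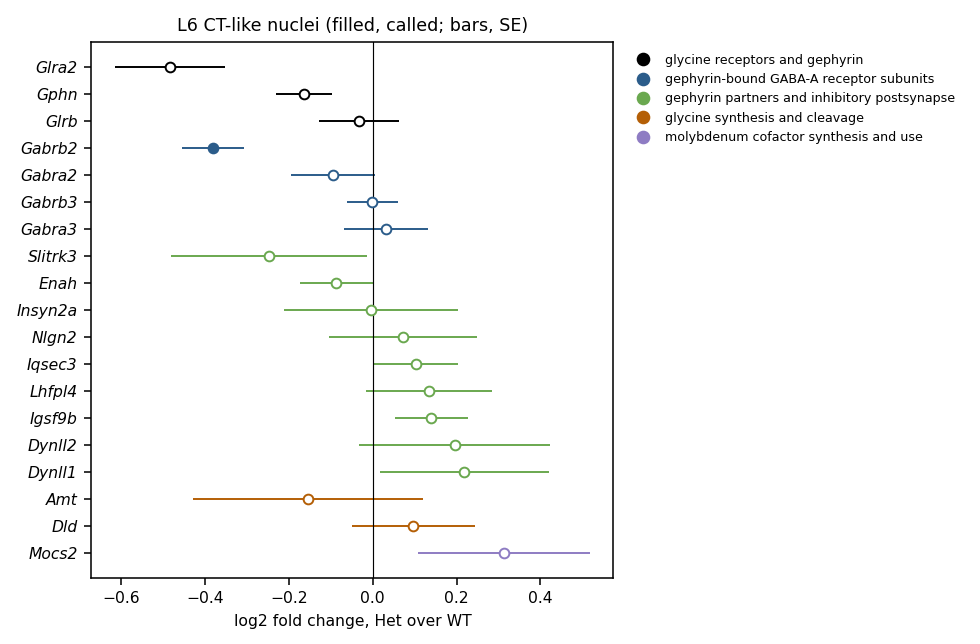
Log2 fold changes, Het over WT, in L6 CT-like nuclei (x axis, edgeR estimate with SE as a bar) of the 3 of the 4 genes that passed the filter and of the tested genes of the lists, coloured by list, with filled points for genes called. The 1 filled point is Gabrb2 at -0.38, and Glra2 at -0.48 is open.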

How the data were processed

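The authors mapped single-nucleus reads to mm10 with ScaleRna, and the deposited matrices hold estimated counts of UMIs per gene and nucleus, not normalized; 92.3% of their entries were whole numbers. The labels' processing notes name Seurat 4.3.0 and DESeq2 1.38.3. No other columns of values were left out.

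The quality limits stated in the study's methods were applied: totals between 800 and 6000 UMIs, between 300 and 3000 detected genes, no more than 1% of UMIs from mitochondrial genes, and log genes over log UMIs of 0.9 or higher. Nuclei kept had a median of 3180 UMIs. The transcript of the injected AAV was left out of totals and tests. Nuclei were clustered (3000 variable genes without the 4 genes and Myt1l, 40 principal components, 20 neighbours, leidenalg 0.10.2, resolution 3) into 64 clusters. A cluster was named by marker panels: a mean log2 ratio of at least 1.2 to the median cluster, 0.2 above the next panel, with 3 or more markers that stood 2-fold over the median cluster and were seen in 3% of its nuclei. No doublet caller was run; 5 clusters (1304 nuclei) stayed unnamed because the markers of a second broad type exceeded 0.25 both of their median in clusters of that type and of the cluster's own markers on the same scale, with 8941 other excitatory and 2519 other GABAergic nuclei.

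UMIs were summed per animal and class (at least 10 nuclei), rounded, and tested with edgeR 4.0.16 in R 4.3.3 (TMM, filterByExpr, robust quasi-likelihood, genotype only, at least 3 animals per genotype; Benjamini-Hochberg over all genes of a class). Tests were checked on simulated counts. Levels, thinning and exact tests used Python 3.11.15, numpy 2.4.6, scipy 1.17.1 and pandas 2.3.3, and the fold changes of levels are ratios of mean CPM. Alternatives were DESeq2 1.42.0, its size factors, no filter on low counts, sex as a term, a replicate block, all deposited barcodes, assignment of nuclei by whole profile, a stricter marker margin, CPM averaged over nuclei, WT animals only, and leaving out each animal.

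The genes named are the 4 genes, Myt1l, the genes of the 6 lists, and for each of the 4 the 3 genes with the most similar class levels; genes leading a cluster are named besides. The results of a few listed genes are not reported here, and they are left out of the lists' counts. The 4 genes, the lists and the classes were chosen with earlier results of these data known.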

Additional observations from a re-analysis of the deposited data

Results flagged for a closer look

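Dixon's ratio was taken for 105 groups of animals, in the class fits and in the sums over all, all excitatory and all GABAergic nuclei. Of these groups 3 held an animal set apart from the others of its genotype (above 0.625 for 6 animals), where chance alone flags about 1 group in 20. In L2/3 IT-like nuclei Glrb was at 61.2 CPM in Het male-1, the lowest of 6, with the next at 88.1, and this animal gave 72 nuclei of the class. In Vip-like nuclei Gphn was at 1206 CPM in WT male-2, the highest of 6, with the next at 888, from 55 nuclei. In striatal-like nuclei Glra2 was at 43.0 CPM in WT female-3, the lowest of 6, with the next at 70.1, from 87 nuclei and 10.5 UMIs of the gene. Leaving out each animal in turn moved the log2 fold change of Glra2 in striatal-like nuclei between -0.69 and -0.48, with no call.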

How the results depend on the processing

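The count of calls among the 4 genes, 0 in the class fits, became 1 with DESeq2 and 1 without the filter on low counts, in both cases Glra2 in L6 CT-like nuclei, and ranged from 0 to 1 when each animal was left out, 1 being without WT female-1. Over all alternatives and animals left out, the adjusted p of Glra2 in this class ran from 0.00673 to 0.223 and its log2 fold change from -0.57 to -0.30. The count of calls in the 6 lists, 1, became 3 with DESeq2, 2 with its size factors and 2 with whole-profile assignment, stayed 1 with a replicate block, and ranged from 1 to 3 when each animal was left out, 3 being without WT female-1 and 2 without WT male-1, male-2 or female-2. Sample numbers shared by WT and Het animals did not pair them, with correlations of same-numbered animals from -0.30 to 0.16, so the replicate block is given only here.

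2 fold changes near 0 turned over. That of Glra2 in dentate granule-like nuclei was -0.00744 with whole-profile assignment and ran from -0.0533 to 0.174 without single animals, below 0 without WT male-1 or Het female-3. That of Glra3 in L2/3 IT-like nuclei was 0.0762 with the replicate block and ran from -0.161 to 0.0598 without single animals, above 0 without WT male-1, male-3 or female-3 or Het male-2 or male-3. The ratio of Glra2 between Vip-like and L2/3 IT-like nuclei was 85.1 in WT animals only, with ratios from 36.8 to 47.4 without single animals; for Glra3 they ran from 14.6 to 33.4 (the last without WT female-1), for Glrb from 2.08 to 2.33 and for Gphn from 1.5 to 1.55. The cause of these moves was not tested.

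Over all genes, the 143 calls of the 22 fits were 350 with DESeq2, 597 without the filter, 281 with all barcodes and 77 to 242 without single animals (WT female-3 and WT female-1); in L6 CT-like nuclei 73 became 121 without the filter, 137 with all barcodes and 34 to 114 without single animals (Het female-1 and WT female-1). The L4/5 IT-like class could not be formed at the stricter margin, and Glrb in Sncg-like nuclei gave no value with whole-profile assignment. Depth limits Glra3 most, with 1680 UMIs over all nuclei.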

Other observations

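Glra2 was also high in clusters inside or beside the named classes, picked after their values were seen. One of the striatal-like clusters, with 457 nuclei led by Foxp2, 6530403H02Rik, Chst9 and Meis2, held 139.8 CPM on average over animals, above the 61.4 CPM of the class. An unnamed excitatory cluster of 635 nuclei led by Cdh18, Gm45341, Svil and C130073E24Rik held 107.2 ± 39.9 CPM, with WT animals from 72.4 to 177 CPM and Het animals from 60.7 to 148 CPM. For Glra3, an unnamed excitatory cluster of 699 nuclei led by Dach1, 9530026P05Rik, Reln and Pde11a held 53.3 CPM, above the 29.5 CPM of L2/3 IT-like nuclei. These clusters were not tested for a difference between genotypes.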
